A study of Mus musculus with 5375 samples.

Results

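The cells described here were 4T1-GFP mouse breast cancer cells taken from culture before any injection, the baseline of a single-cell RNA sequencing study of metastasis to the lung. 4T1 is an epithelial mammary carcinoma line of BALB/c origin, and 4T1-GFP carries a green fluorescent protein. Membership followed the library label alone: every tumor cell (TC) of the culture library that the authors kept was a member, which gave 369 of 1566 kept TCs in the deposited table. The deposited table holds slightly more TCs than the text of the study counts. From culture, 384 wells had been sorted, against 1920 for all TCs. The culture was 1 pool with no biological replicate, so its cells were not replicates, no test was made across them, and every correlation over cells is a description of this pool.

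The cells had been grown in high-glucose DMEM with fetal calf serum and passaged with trypsin. For injection into female BALB/c mice, 4T1-GFP cells were stained with CellTrace, a dye diluted at each division. TCs recovered from lungs are given beside the culture only as a scale. On day 1.5 after injection they had been sorted as intravascular (4 mice) or extravascular (the same 4 mice), by whether an antibody in the blood reached them. On day 3.5 they had been sorted as latent (4 further mice), which kept the CellTrace dye, or proliferative (237 cells), which had diluted it. The proliferative cells were sorted from 4 mice by the study's methods but carry 1 mouse label in the deposited annotation, so they were treated as 1 pool. Together the intravascular, extravascular and latent cells made 12 sets by mouse and gate, called lung libraries here. By the study's methods the mice were pooled by sort gate for sequencing. The 12 were therefore not independent libraries, and gate and sequencing pool cannot be told apart. The lungs had been digested with enzymes, so source, handling and library changed together and cannot be told apart in any difference from the culture.

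Each cell in a growing population carries the RNA of its moment. Genes for DNA synthesis, driven by E2F factors, are transcribed around S phase, and genes of the mitotic spindle, many with a CCAAT box and a cell cycle homology region (CHR) in the promoter, follow in G2 and mitosis. Carcinoma cells can hold epithelial genes (keratins, E-cadherin) and mesenchymal genes (vimentin, fibronectin) at once, a mixture named partial epithelial-to-mesenchyme transition (EMT). The integrated stress response, in which the factor ATF4 raises genes for amino acid uptake and synthesis, answers amino acid shortage and other insults. Interferon-stimulated genes answer type I interferon, and class I antigen presentation can follow interferon or be present at rest.

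The kept cells had a median of 253686 estimated reads (lowest 42406, highest 618037) and a median of 5781 detected genes (2761 to 8745). A gene was detected where its estimated count was above 0. Lung library medians were 459916 to 718192 reads, so detection shares, score medians and score spreads set beside the lung were taken at 100000 reads per cell, which left 354 cultured cells. Correlations set beside the lung are at full depth in both. Gene positions are those of the mouse build GRCm38, as in gencode release M21. A level is given as CPM, the estimated reads of a gene scaled to a fixed total per cell, as its lowest, median and highest value over the 369 cells, and a level is compared between genes only as mean CPM per kilobase of exon. Mitochondrial genes took a median 2.34% of reads, and 1 cell exceeded 5%. The label held against the markers: Krt18 was detected in all 369 cells, Krt8 in 368, Krt7 in 367, Epcam in 354 and Cdh1 in 287. Of 10 immune markers 5 had no read, of 10 stromal and mural markers 6, of 6 lung epithelial markers 4, of 8 endothelial markers 1 and of 5 erythroid markers 1. The summed level of those lists peaked at 440.1, 90.6, 102, 132 and 425 CPM, against a median of 2955 CPM for the tumor epithelial markers. Pecam1, detected in 293 cells, made up nearly all of the endothelial sum, while Cdh5 was detected in 5 cells and Emcn in none. Of the immune markers Cd68 was detected in 93 cells (highest 440.1 CPM) and Csf1r in 21, while Ptprc was detected in 3.

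For each of 15 gene lists a module score was computed, the mean of the list less that of control genes of like level, in log10 units. How far a list moved as a unit was read from 3 quantities: the median correlation over pairs of members, the correlation of each member with the score of the other members (member r), and the share of genes outside the list with an r of at least 0.2 to the score, which is the background. Only members detected in at least 20% of the cells were counted. Over all 40136320 pairs of the 8960 genes at that filter the median r was 0.0464 (5th to 95th percentile -0.0985 to 0.184). All points share 1 pool and 1 normalizer per cell, and detected genes followed reads (r = 0.715 for log10 reads), so values given log10 reads and detected genes stand beside the main ones where they matter.

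Cell cycle genes moved together most closely: of the 15 lists, G2M and S phase had the highest median member r. Of the 52 members of the G2M list detected in at least 20% of cells (54 listed), 49 reached a member r of 0.2, against 3.59% of genes outside the list, with a median member r of 0.553 and a median pairwise r of 0.326. Of the 43 members of the S-phase list 41 reached it, against 3.25%, with medians of 0.398 and 0.212. No member of either list had a negative member r.

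**Figure D1:**
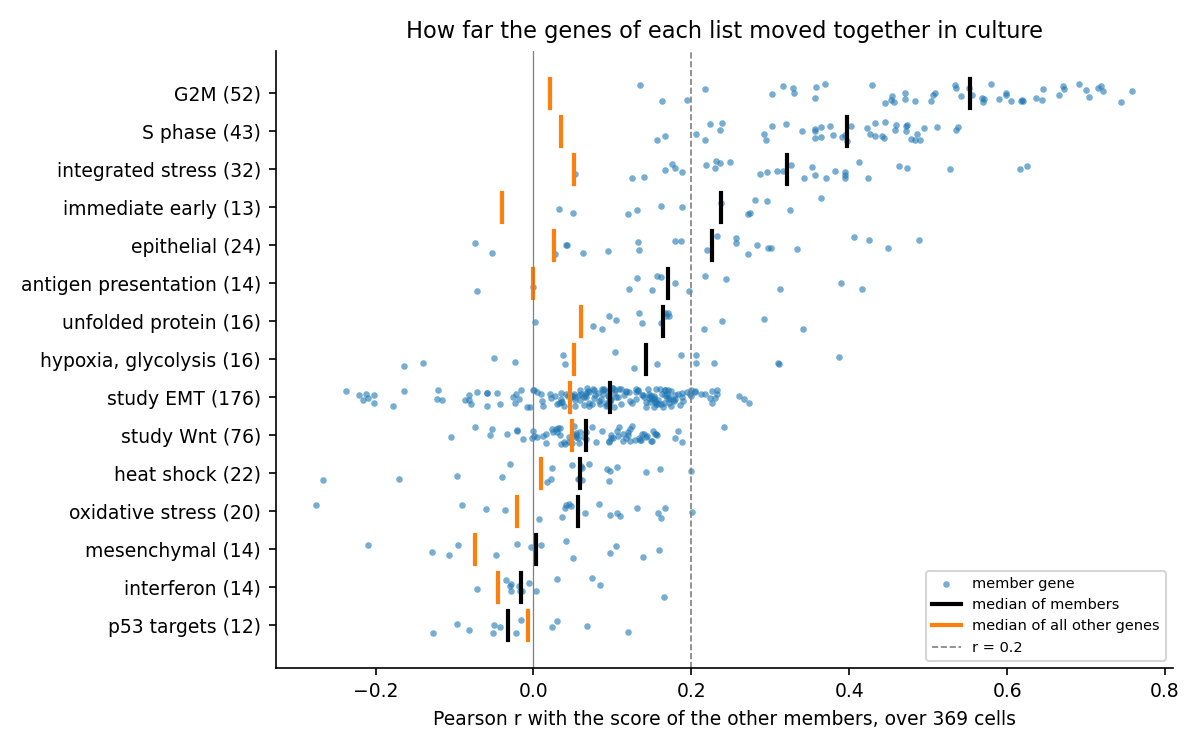
Member r (Pearson, over 369 cells, on deposited log10 values) of every member detected in at least 20% of the cells (blue points), by gene list, with the number of such members in brackets. Black bars are the medians of the members, orange bars the medians of all other genes, and the dashed line is r = 0.2. The G2M, S-phase and integrated stress members sit mostly right of the line, and none of the 14 interferon and 14 mesenchymal members does.

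In G2 and mitosis the leaders were Birc5, the survivin subunit of the chromosomal passenger complex (member r 0.759), Ube2c, the ubiquitin-conjugating enzyme of the anaphase-promoting complex (0.744), Cdca8, the borealin subunit of the passenger complex (0.722), and Cdca3 (0.719). Birc5 (chr11:117849251-117855743) had lowest, median and highest levels of 0, 223 and 1853 CPM. Ube2c had levels of 0, 92.6 and 3002 CPM, and its r with Birc5 was 0.672. Cells ranged from no read to levels many times the median in both genes. At the other end were Jpt1 (0.194), Ctcf, the chromatin insulator protein (0.163), and Cbx5, the heterochromatin protein HP1 alpha (0.135). These 3 were detected in 367, 184 and 311 cells, and they followed the list least. Outside the list, the genes of highest r with the G2M score were Prc1, a spindle midzone protein (0.746), Ccna2, cyclin A (0.721), Plk1, a mitotic kinase (0.683), and Pttg1, securin (0.681).

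Among DNA synthesis genes the leaders were Gmnn, the licensing inhibitor geminin (member r 0.538), Rpa2, a subunit of the single-strand binding complex (0.535), Rrm2, the small subunit of ribonucleotide reductase (0.512), and Cdc6, a loader of the MCM helicase (0.494). Gmnn (chr13:24751845-24761923) had lowest, median and highest levels of 0, 81.3 and 859.9 CPM and Cdc6 of 0, 0 and 136 CPM, with reads in 291 and 82 cells. Cdc6 was thus not detected in most cells. Ubr7 (0.166) was among the members below the threshold. Outside the list Lig1, DNA ligase I (0.571), and Tk1, thymidine kinase (0.571), followed the score most closely.

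The promoters of these 2 lists were read from RefSeq (GRCm38.p6) over the 250 bases before the annotated start. The table used held 28 of the 43 S-phase members and 42 of the 54 G2M members. The E2F-type letters TTTCCCGC or TTTGGCGC, on either strand, stood in 8 of the 28 S-phase promoters (28.6%), against 1.35% of all 22862 promoters in the table. The CHR letters TTTGAA or TTCGAA stood in 19 of the 42 G2M promoters (45.2%), against 17.9%, and the letters CCAAT in 31 (73.8%), against 34.7%. Both stood in 17 of the 42 (40.5%), against 6.29%. A match is a description of these letters in this window, not a site shown to be bound. Windows of 60 bases are shown for 4 S-phase and 4 G2M members that held a match, 5′ to 3′ on the strand of the gene, with every match in the window in capitals (E2F-type letters in the first 4, CHR letters in the last 4).
Cdc6 (chr11:98907987-98908046, plus strand): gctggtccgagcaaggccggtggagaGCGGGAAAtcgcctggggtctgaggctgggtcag
Mcm5 (chr8:75109334-75109393, plus strand): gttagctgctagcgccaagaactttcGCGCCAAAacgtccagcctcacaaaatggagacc
Mcm6 (chr1:128359719-128359778, minus strand): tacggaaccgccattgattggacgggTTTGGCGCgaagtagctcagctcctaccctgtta
Hells (chr19:38930902-38930961, plus strand): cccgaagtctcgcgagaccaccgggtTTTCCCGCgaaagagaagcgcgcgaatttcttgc
Ube2c (chr2:164769869-164769928, plus strand): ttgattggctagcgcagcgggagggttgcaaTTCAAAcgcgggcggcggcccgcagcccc
Top2a (chr11:99024190-99024249, minus strand): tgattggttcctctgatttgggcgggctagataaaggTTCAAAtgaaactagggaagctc
Ckap2l (chr2:129297213-129297272, minus strand): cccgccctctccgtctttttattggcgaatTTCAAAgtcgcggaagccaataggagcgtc
Mki67 (chr7:135716445-135716504, minus strand): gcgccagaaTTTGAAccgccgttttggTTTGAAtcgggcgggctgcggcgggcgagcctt

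Cells were called cycling at an S-phase and G2M score sum above 0, a line the study also drew, although the S-phase list was written for this report and sums may differ from those of the study. By this limit 206 of 369 cells (55.8%, exact 95% binomial interval 50.6 to 61.0%, counting error only) were called cycling. Neither score was above 0 in 110 cells (29.8%), the S-phase score was the higher positive one in 123 (33.3%) and the G2M score in 136 (36.9%). The distribution had no gap at the limit, since 33 cells had a sum within 0.1 of it. At 100000 reads the share was 55.9%, beside 70.9 to 80.8% in the 4 intravascular libraries, 71.8 to 75.3% in the 4 extravascular, 54.9 to 67.9% in the 4 latent and 76.1% in the proliferative pool. The culture lay below all 8 day 1.5 libraries and above the lowest latent one.

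**Figure D2:**
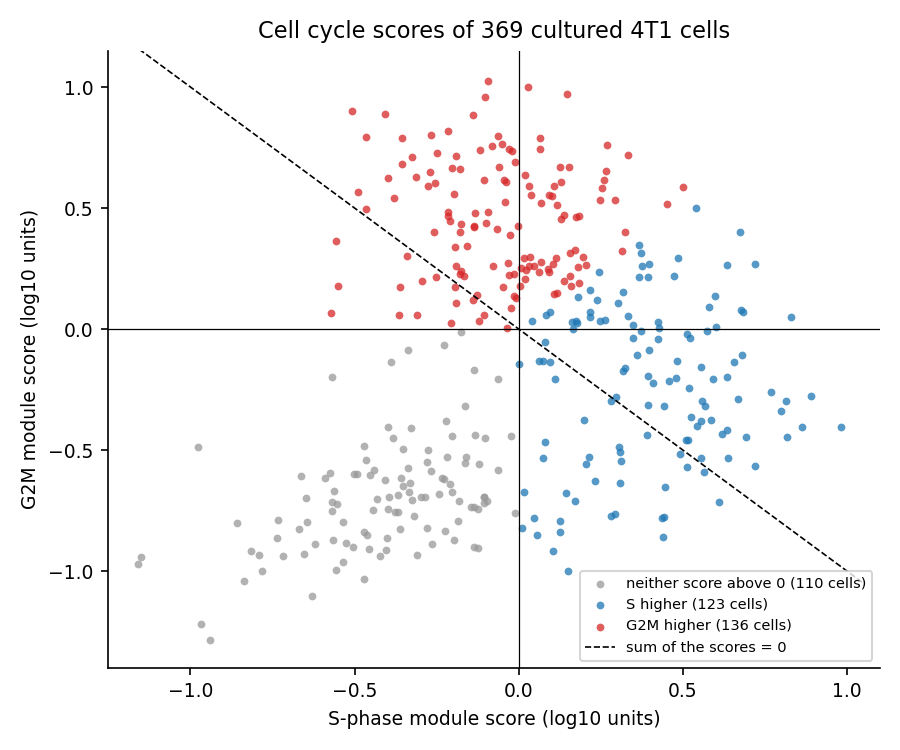
S-phase score (x, log10 units) against G2M score (y, log10 units) of each of the 369 cultured cells, colored by which score was higher among those above 0, with the dashed line at a sum of 0. The 110 cells with neither score above 0 fill the lower left, the 123 S-higher and 136 G2M-higher cells run without a gap into each other, and 93 cells lie above 0 on both axes.

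Single genes followed these calls, which were made partly from them, so the values describe the calls. Mki67, the proliferation marker Ki-67, was detected in 14.5% of cells with neither score above 0, 56.1% of S-higher and 87.5% of G2M-higher cells. Ccne2, the G1/S cyclin E2, was detected in 7.27, 44.7 and 13.2% of them, and Pcna, the sliding clamp of replication, had mean levels of 117, 389.6 and 151 CPM. Both peaked in the S-higher cells, whereas Mki67 and Top2a, topoisomerase II (mean 9.0, 106 and 230.2 CPM), peaked in the G2M-higher cells. Cyclin D1 (Ccnd1) had levels of 0, 446 and 3276 CPM and was detected in 98.2 to 100% of the cells of each call. The cycle inhibitor Cdkn1a was detected in 133 cells (22.7, 49.6 and 34.6% by call) and Cdkn1b in 238 (50.9, 63.4 and 76.5%), so each inhibitor was detected least often in the cells with neither score above 0. In mean level Cdkn1b was lowest in S-higher cells (28.5, 24.3 and 42.8 CPM). The cells with neither score above 0 also had fewer detected genes (median 5029, against 6147 and 5906), and the part of depth in these detection shares was not tested.

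The S-phase and G2M scores rose together in culture (r = 0.244, 0.208 given depth). The 4 latent libraries had r of 0.245 to 0.388, whereas the 8 day 1.5 libraries had r of -0.485 to -0.044 and the proliferative pool -0.264. The sign of the culture was therefore that of the latent libraries alone. In 93 cultured cells (25.2%) both scores were above 0.

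Histone genes were among the most variable of the culture. Hist1h2ap (chr13:21833026-21833507), which encodes a histone H2A, had lowest, median and highest levels of 0, 1613 and 76788 CPM, and 10% of the cells held 51.0% of its summed CPM. Hist1h2aj (0, 406 and 19020.3 CPM) moved with it (r = 0.732), as did the linker histone gene Hist1h1e (0.689). Hist1h2ap followed the G2M score (0.570) more closely than the S-phase score (0.332), and Top2a (0.573) more closely than Rrm2 (0.135). Replication-dependent histone mRNAs mostly lack a poly(A) tail, histone genes are near-identical, and Hist1h2aj is annotated as a pseudogene in the release used here, so how reads were split among them is uncertain.

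Krt18, Krt8, Krt7 and Epcam were detected in nearly every cell at graded levels, which did not hold for the whole epithelial list. Of 24 epithelial members at the detection filter (38 listed), 13 reached a member r of 0.2, against 8.36% of other genes, and the median pairwise r was 0.0936. The 4 of highest member r were keratins of simple epithelium and a tight junction gene. Krt18 (chr15:102028180-102032027) had lowest, median and highest levels of 11.2, 1357 and 8609 CPM (member r 0.448), Krt8, its partner in the filament, 0, 352 and 6666 CPM (0.426) and Krt7 0, 932 and 14039.6 CPM (0.406). Krt18 was the only epithelial member with reads in every cell. Claudin 4 (Cldn4) had the highest member r (0.488), with 0, 65.8 and 4122 CPM. The other members past the threshold were Spint1 and Spint2, inhibitors of serine proteases (0.334 and 0.301), the tricellular junction gene Lsr (0.297), the desmosome gene Pkp3 (0.283), Epcam, Elf3, Cldn3, Jup and Crb3 (0.219 to 0.272), whereas the keratin gene Krt19 had 0.0947. Krt8 and Krt18 had r = 0.678 and Krt7 and Krt18 0.638, far above the 95th percentile of all pairs.

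The other 11 members, E-cadherin among them, followed the list less. Cdh1 had lowest, median and highest levels of 0, 53.3 and 615 CPM with a member r of 0.0273, and its r with Krt18 was -0.0574. The epithelial transcription factor Grhl2 (-0.0530) and the laminin receptor subunit Itga6 (-0.0736) were the only members with a negative member r. Epcam, an epithelial adhesion protein, lay between (0.272), with r = 0.164 to Cdh1 and 0.237 to Cldn4. The junction genes Dsp (0.0406) and Tjp1 (0.0423) also had low values. The Krt18 level of a cell thus said little of its Cdh1 level. Krt14, a basal keratin, was detected in 35 cells, and at 100000 reads in 7.91% of cells beside 32.4 to 66.7% in the 12 lung libraries, below all of them. Cldn4, in contrast, was detected in 87.0% of cultured cells and 29.9 to 62.2% of lung TCs by library.

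A minority of the mesenchymal list was detected widely, with low correlations between its members. None of the 14 mesenchymal members at the filter (46 listed, 7 with no read) reached a member r of 0.2, against 0.0559% of other genes. With so low a share of other genes, this count says little of the members. Their median pairwise r of 0.0456 lay near that of all genes. The median member r was 0.00302, beside a median of -0.0741 for genes outside the list. Vim (chr2:13573927-13582826), vimentin, had lowest, median and highest levels of 0, 275 and 6539.99 CPM (member r 0.159). S100a4, a calcium-binding protein of motile cells, had 0, 2011 and 18335 CPM (0.138), and Fn1, fibronectin, 0, 167 and 2751 CPM (-0.0204). Each was detected in over 350 cells, and Vim and S100a4 had the highest member r of the list, which were low values beside those of the cycle lists. Per kilobase, the mean level of S100a4 (5664 CPM) exceeded that of Krt18 (1095), Vim (111), Epcam (104), Fn1 (19.0) and Cdh1 (16.6). Vim had r = -0.161 to Fn1, 0.122 to the matricellular gene Sparc and 0.203 to the receptor kinase gene Axl. On CPM at 100000 reads these were -0.0249, 0.168 and 0.279, and the value to Fn1 was near 0 there. Ccn2, a matricellular gene, was detected in 71.5% of cultured cells at 100000 reads, above all 12 lung libraries (8.82 to 24.4%), and Cd44, an adhesion receptor gene, in 64.1%, below them (87.0 to 97.3%). S100a4 moved with its neighbor gene S100a6 (0.673), and against Krt18 (-0.258).

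Of the EMT transcription factors, Snai1 was detected in 159 cells, Twist1 in 94, Zeb2 in 84, Zeb1 in 9 and Snai2 in 8. Cdh2, N-cadherin, was detected in 1 cell. Detection of the 5 factors ranged from 43.1% of cells for Snai1 to 2.17% for Snai2, at low levels (highest 233 CPM for Snai1 and 29.9 CPM for Zeb1).

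Epithelial and mesenchymal genes were detected in the same cells. At 100000 reads Cdh1 and Vim were both detected in 240 of 354 cells (67.8%), and the product of the 2 shares was 67.8%. Epcam and Vim were both detected in 319 cells (90.1%), and no cell lacked both, at shares so high that little else was possible. In correlation of levels, Vim had r = 0.195 to Krt18 and 0.261 to Krt8, but -0.156 to Epcam and -0.0745 to Cdh1 (on CPM at 100000 reads 0.350, 0.337, -0.0652 and -0.0713). The 2 scores had r = -0.0238, and its sign turned under several alternatives (-0.0467 to 0.0531). In the 12 lung libraries that r was 0.00718 to 0.311. The mesenchymal members were little correlated with each other, so the r of the 2 scores cannot show whether the lists opposed each other. By single gene, r to the epithelial score was -0.346 for S100a4, -0.0511 for Vim and 0.187 for Fn1.

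**Figure D3:**
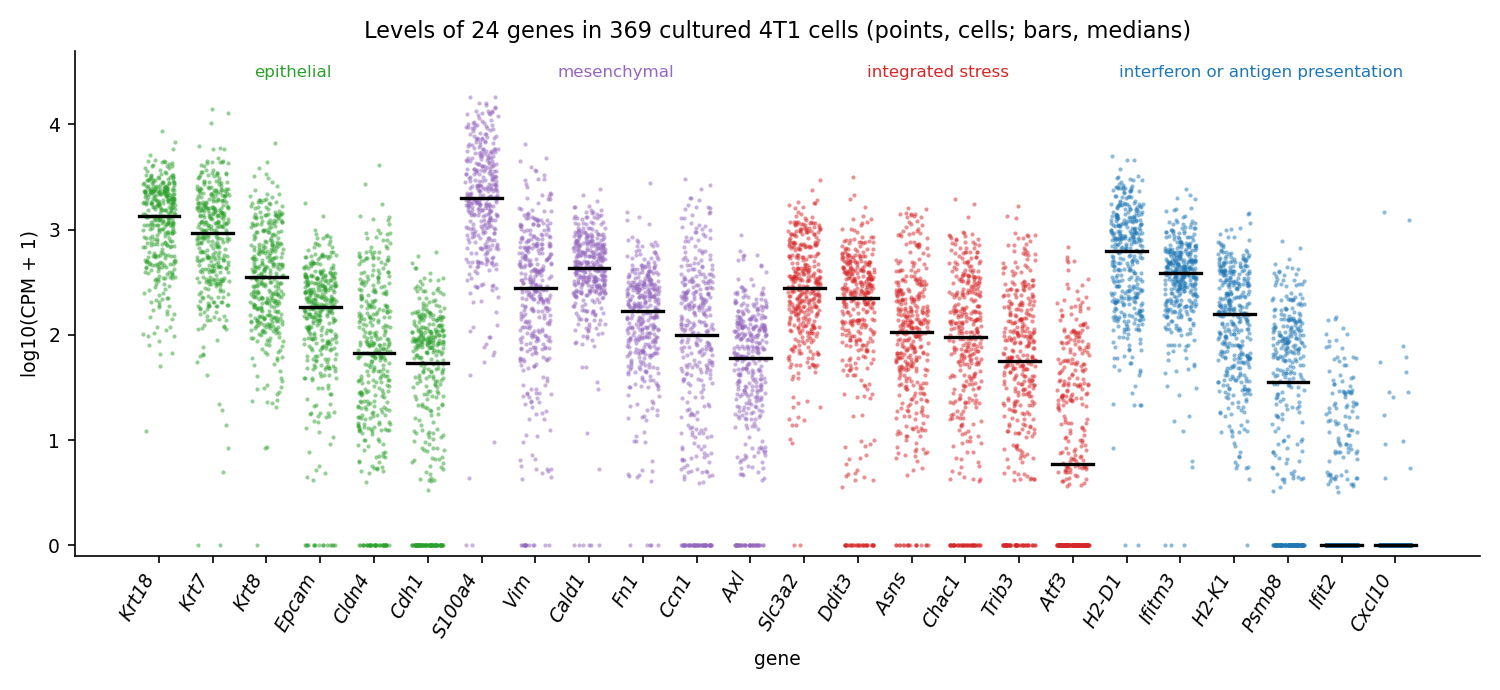
Level of 24 genes, as log10(CPM + 1) and not adjusted for gene length, in each of the 369 cultured cells (points), with the median of each gene (bars), for epithelial, mesenchymal, integrated stress, and interferon or antigen presentation genes. Keratins, S100a4 and H2-D1 were detected in nearly every cell over a wide range, whereas Ifit2 and Cxcl10 had medians of 0.

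The EMT and Wnt lists of the study held genes of many functions, and most of their members did not reach a member r of 0.2. Of 176 EMT members at the filter (384 listed), 14 reached it, against 1.24% of other genes, and of 76 Wnt members (146 listed) 1 did, against 1.49%. The EMT count was above the share of other genes, while the Wnt count was near it and says little of the members. The leaders of the EMT list were Vim (0.272), the endocytic receptor gene Lrp1 (0.267), Axl (0.260) and the basement membrane collagen gene Col4a2 (0.233). Near its low end was Lgals1, galectin 1 (-0.221). The Wnt member past the threshold was Nfat5 (0.242), a transcription factor of the osmotic stress response. Genes the study tied to stemness and dormancy had a median member r of -0.0819 over 5 members, and its extravasation genes 0.0571 over 6. Axin2, a target of canonical Wnt signaling, was detected in 0 of 369 cells, which allows a share of cells with a read of up to 0.813%, not a limit on cells expressing it. Of 17 Wnt target genes listed 5 were detected in at least 20% of cells, among them Myc, which has many other regulators, with lowest, median and highest levels of 0, 69.2 and 1549.7 CPM.

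Across cells the EMT and Wnt scores had r = 0.325 (0.273 given depth, 0.596 when scores were means of z values, and 0.30 without the genes that both lists hold and cycle genes), beside 0.303 to 0.702 in the 12 lung libraries. The EMT and mesenchymal scores, which share members, had r = 0.385. At 100000 reads the spread of the EMT score over cells (SD 0.151, log2 units) lay below that of all 12 lung libraries (0.214 to 0.272). The same held for the Wnt (SD 0.180, lung 0.208 to 0.315), mesenchymal (0.262, lung 0.298 to 0.401) and epithelial scores (0.530, lung 0.537 to 0.811). On these lists the culture had the lowest SD of the 13, though by a narrow margin for the epithelial score. This was not particular to them, since its SD was also lowest for the interferon (0.262, lung 0.306 to 0.951) and immediate early scores (0.661, lung 0.766 to 1.21). No test was made, since the culture was 1 pool.

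The integrated stress response had the highest median member r after the 2 cycle lists. Of 32 members at the filter (35 listed), 25 reached a member r of 0.2, against 7.17% of other genes, with a median member r of 0.321, a median pairwise r of 0.167 and no negative member. Trib3 (chr2:152337422-152344032), a pseudokinase induced by ATF4, had lowest, median and highest levels of 0, 55.4 and 1667 CPM and the highest member r (0.625). Slc3a2, the heavy chain of amino acid transporters, had 0, 279 and 2958 CPM (0.616), and Sars, the seryl-tRNA synthetase gene, 0, 251 and 2489 CPM (0.528). Atf4 itself had 0, 261 and 2244 CPM (0.474). These 4 genes were detected in 317, 367, 367 and 361 cells, and of the 4 Trib3 had the largest ratio of the highest level to the median.

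The factor gene and its targets were tied pair by pair. Trib3 had r = 0.534 to Ddit3, which encodes the stress factor CHOP, 0.516 to Chac1, a glutathione-degrading enzyme, 0.512 to Atf4 and 0.454 to Slc3a2. Asns, asparagine synthetase, was looser (0.329), and Atf3 looser still (0.267). Given depth, the same 6 values were 0.516, 0.485, 0.468, 0.421, 0.244 and 0.203. Serine synthesis (Phgdh 0.371, Psat1 0.394, Psph 0.357) and mitochondrial folate enzymes (Shmt2 0.412, Mthfd2 0.395) followed the score. The least tied members were Stc2, a secreted glycoprotein gene (0.125), and Atf5 (0.0525). Outside the list the score was followed by Ciart, a circadian repressor gene (0.492), Stbd1, a glycogen-binding protein gene (0.473), and the translation genes Eif1 (0.435) and Eef1a1 (0.431). Myc had r = 0.393 to it.

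The core letters of the amino acid response element, TGATGNAA on either strand, stood in 8 of the 24 promoters of this list in the RefSeq table (33.3%), against 3.63% of all promoters. Windows of 60 bases are shown for 4 members whose promoter held them, a glutathione-degrading enzyme, asparagine synthetase and the glycyl- and threonyl-tRNA synthetases, with every match in the window in capitals.
Chac1 (chr2:119351023-119351082, plus strand): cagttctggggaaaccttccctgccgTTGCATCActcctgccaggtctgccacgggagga
Asns (chr6:7693210-7693269, minus strand): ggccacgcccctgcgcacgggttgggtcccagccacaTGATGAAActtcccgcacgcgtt
Gars (chr6:55037941-55038000, plus strand): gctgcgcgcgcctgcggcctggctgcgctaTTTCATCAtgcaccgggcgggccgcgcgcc
Tars (chr15:11399659-11399718, minus strand): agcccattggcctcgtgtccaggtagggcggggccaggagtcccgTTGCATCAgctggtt

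This program was higher in the culture than in any lung library. At 100000 reads its median score was 1.61 (log2 units), above all 12 lung libraries (-0.717 to -0.312) and the proliferative pool (-0.621). Chac1 was detected in 85.6% of cultured cells, against 5.19 to 28.0% in the lung libraries, Trib3 in 80.8% against 6.85 to 29.3%, and Cth, a cysteine synthesis enzyme, in 63.3% against 1.37 to 10.4%. Ciart, outside the list, was detected in 70.9% against 2.94 to 29.5%. The culture value lay outside the lung range for each of these genes, while the spread of the score over cells (SD 0.744) lay inside the lung range (0.639 to 1.32). The culture lay outside the lung range in the level of the program and inside it in the spread between cells.

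Unfolded protein genes were looser. Of 16 members of that list 4 reached a member r of 0.2, a share to be read against 9.78% of other genes. They were the factor gene Xbp1 (0.342), Pdia6, a disulfide isomerase gene (0.292), and the chaperone cofactor genes Sdf2l1 (0.238) and Dnajb11 (0.215). Hspa5, the chaperone BiP, had lowest, median and highest levels of 0, 473 and 5889 CPM and a member r of 0.168. It followed the integrated stress score (0.393) more than the score of its own list, of which it is a member (0.254).

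Heat shock genes moved together only weakly. None of the 22 members at the filter reached a member r of 0.2, against 1.24% of other genes, a count near that share. Their median pairwise r was 0.0712, beside 0.0464 over all genes. The median member r was 0.0591, beside a median of 0.00951 for genes outside the list. Hsp90aa1, an inducible HSP90, had lowest, median and highest levels of 29.3, 1770.4 and 4622 CPM and the mitochondrial co-chaperonin gene Hspe1 10.5, 343 and 1049 CPM. Both were detected in all 369 cells and had negative member r (-0.171 and -0.267), although they moved with each other (0.558, 0.310 on CPM at 100000 reads). Hspa1a was detected in 0 of 369 cells, which allows a share of cells with a read of up to 0.813%, and in no cell of the 12 lung libraries at 100000 reads, and Hspa1b in 18 cells. The letters GAANNTTC of the heat shock element stood in 5 of 15 promoters of this list (33.3%), against 6.97% of all promoters. Hspa1a and Hspa1b, both strongly inducible HSP70 genes, are near-identical, so reads could have been assigned between them. At 100000 reads Hspa1b was detected in 3.67% of cultured cells, beside 7.69 to 34.2% in the lung libraries.

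Immediate early genes, transcribed within minutes of a stimulus, formed a small unit. Of 13 members at the filter (22 listed), 7 reached a member r of 0.2, against 0.179% of other genes. Ier2 (chr8:84661331-84662852) had lowest, median and highest levels of 0, 42.5 and 948 CPM (member r 0.365), Egr1 0, 0 and 597 CPM (0.324) and Fos 0, 0 and 986 CPM (0.295). The other 4 past the threshold were Ier3 (0.280), the AP-1 genes Jun (0.275) and Junb (0.238), and the phosphatase gene Dusp1 (0.272). Fos was detected in 91 cells, and 10% of the cells held 87.6% of its summed CPM. At 100000 reads Fos and Egr1 were both detected in 53 of 354 cells (15.0%), against a product of shares of 8.62%, and their r was 0.383. Fos was detected in 20.9% of cultured cells at that depth, below all 12 lung libraries (35.9 to 77.8%), whereas Ier3 was above them (97.5% against 58.8 to 87.2%).

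Of 20 oxidative stress members 1, the autophagy receptor gene Sqstm1, reached a member r of 0.2, against 0.783% of other genes, and Txn1, thioredoxin (-0.275), had the lowest. The ferritin genes Ftl1 (1634, 10346 and 76529 CPM) and Fth1 (623, 5626 and 35294 CPM) were detected in every cell and moved with each other (0.404, 0.356 given depth). Of 16 hypoxia and glycolysis members 6 reached it, against 5.21%, led by the glycolytic genes Eno1 (0.386), Ldha (0.312) and Aldoa (0.310), followed by Bnip3, a mitophagy receptor gene (0.228), Ndrg1 (0.206) and Ero1l (0.206). Eno1 and Ldha moved together (r = 0.473, 0.754 on CPM at 100000 reads), while Hk2, hexokinase 2 (-0.164), and Mif, a cytokine gene (-0.140), had the lowest values. None of 12 p53 target genes reached it, against 0.0335%, a share so low that this count says little of them. Cdkn1a had r = 0.105 (0.0384 on CPM at 100000 reads) to Mdm2, the main negative regulator of p53. At 100000 reads the median oxidative stress (1.14) and hypoxia scores (0.703, log2 units) lay above all 12 lung libraries (0.666 to 0.892 and 0.182 to 0.464). Those of the heat shock (0.286, lung 0.341 to 0.681) and unfolded protein lists (-0.364, lung -0.185 to 0.511) lay below all 12.

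Most interferon-stimulated genes were detected in few cells. Of 56 genes listed 14 were detected in at least 20% of the cells, and none of these reached a member r of 0.2, against 0.0% of other genes (0 of 8946), so this limit says nothing of the members. Their median pairwise r was 0.0536, near that of all genes. Isg15, a ubiquitin-like modifier, was detected in 38 cells, Irf7, the factor that amplifies the response, in 8, Ifit3 in 4 and Ifit1 in 3. The exceptions were Ifitm3, a membrane restriction factor, with lowest, median and highest levels of 0, 385 and 2418 CPM, and Ifi27, with 0, 103 and 827 CPM. Ifitm3 was detected in 366 cells and Ifi27 in 336, followed by Xaf1 in 299 and Ifi35 in 271. Ifit2 was detected at 100000 reads in 23.7% of cells, above all 12 lung libraries (2.74 to 9.86%), with a highest level of 146 CPM.

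Among the sparse genes, a few cells held more than 1: at 100000 reads Cxcl10 and Ccl5 were both detected in 3 of 354 cells (0.847%, product of shares 0.158%), and Isg15 and Ifit1 in 2 (0.565%, product 0.0431%). Their r over all 369 cells were 0.279 and 0.252, from too few cells to read further. A single cell, called here the cell of most interferon genes, stood apart. It had reads for 28 of the 56 genes, against 22 in the next cell, and at 100000 reads for 27, against 19 in the next and a median of 8. Its levels were 1456 CPM for the chemokine gene Cxcl10, 1452 CPM for Oasl1, 519.9 CPM for Ifit1, 517 CPM for the chemokine gene Ccl5 and 288 CPM for the antiviral enzyme gene Rsad2. It held the highest level of the culture in 8 of the 56 genes, and for Ifit1 the next cell had 8.17 CPM. Cxcl10 was not particular to it, since another cell reached 1243 CPM. With 253383 reads, 7166 detected genes and 3.16% mitochondrial reads the cell was near the median in reads and above the upper quartile of the culture in detected genes (6587) and mitochondrial share (2.94%), and the part of detected genes in this count was not tested. Its S-phase and G2M scores were 0.0460 and -0.781. The interferon genes Ifnb1, Ifna4, Ifnl2, Ifnl3 and Ifng had no read in any of the 369 cells, itself included. In the lung libraries cells with 20 or more of these genes were 1 to 14 per library (1.30 to 17.9%), and in culture 1 of 354 (0.282%).

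**Figure D4:**
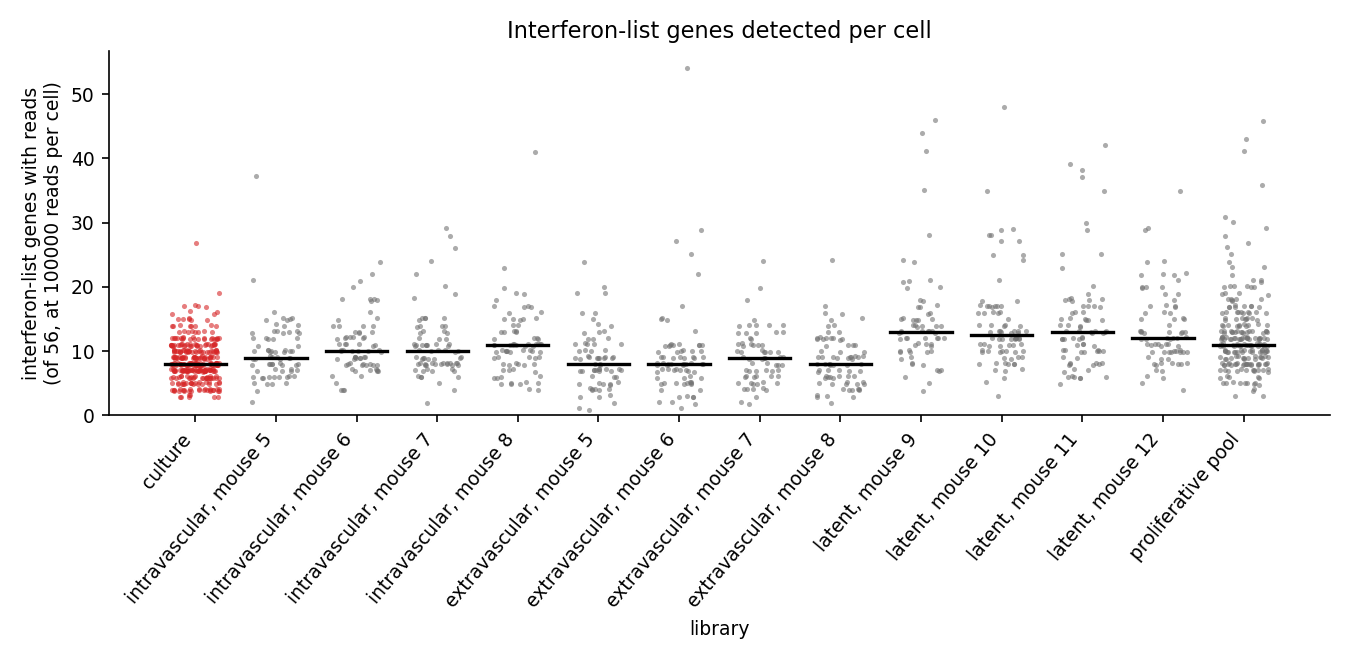
Number of the 56 interferon-list genes with reads in each cell thinned to 100000 reads, by library, with medians as bars. The culture has a median of 8 and 1 cell at 27, while the 12 lung libraries have medians of 8 to 13 and hold 1 to 14 cells each at 20 or more.

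The core of the interferon-stimulated response element, GAAANNGAA on either strand, stood in 18 of the 36 promoters of this list in the RefSeq table (50%), against 7.16% of all promoters. Windows of 60 bases are shown for 4 genes that held it and in which that cell was the highest of the culture, with every match in the window in capitals.
Cxcl10 (chr5:92349069-92349128, minus strand): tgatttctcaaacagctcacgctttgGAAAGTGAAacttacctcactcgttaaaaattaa
Ifit1 (chr19:34640779-34640838, plus strand): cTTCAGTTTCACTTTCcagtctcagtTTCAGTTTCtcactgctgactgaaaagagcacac
Rsad2 (chr12:26456538-26456597, minus strand): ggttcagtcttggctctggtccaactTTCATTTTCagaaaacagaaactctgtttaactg
Isg15 (chr4:156200851-156200910, minus strand): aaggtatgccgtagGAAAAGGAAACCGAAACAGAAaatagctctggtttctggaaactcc

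Class I antigen presentation was present at rest and tied to interferon genes only loosely. Of 14 members at the filter (19 listed), 5 reached a member r of 0.2, against 3.01% of other genes. The class I heavy chain genes led: H2-K1 (chr17:33996017-34000347) had lowest, median and highest levels of 0, 158 and 1446 CPM (member r 0.416) and H2-D1 0, 625 and 5063 CPM (0.390). The other members past the threshold were the immunoproteasome subunit genes Psmb8 (0.313) and Psmb10 (0.218) and the class I gene H2-Q4 (0.243). The r of H2-K1 and H2-D1 was 0.716, and these paralogs can share reads. The light chain gene B2m had 21.5, 1317 and 6047 CPM and r = 0.0145 to H2-D1 on the deposited values, of which it is one of the normalizing genes, and 0.230 on CPM at 100000 reads. H2-K1 had r = 0.144 to Psmb8 (0.220 at 100000 reads) and -0.221 to Ifitm3 (-0.220), so H2-K1 and Ifitm3, both inducible by interferon, did not rise together. The interferon and antigen presentation scores had r = 0.264, 0.263 without the cell of most interferon genes, beside 0.0322 to 0.583 in the 12 lung libraries. At 100000 reads the median antigen presentation score (-0.326) lay below all 12 (0.165 to 1.06), as did that of the interferon list (-0.438, lung -0.340 to 0.0387).

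Across the 15 scores the culture held few strong ties. Of 105 pairs 18 had r of at least 0.2 and 3 had r of -0.2 or lower. Of the 26 pairs of a cycle score with another score 25 were below 0, the exception being G2M and the EMT list (0.0129). The 3 lowest were G2M with heat shock (-0.221), with epithelial (-0.212) and with p53 target scores (-0.209). Integrated stress had r = -0.168 to the S-phase and -0.174 to the G2M score, and every one of the 12 lung libraries had both below 0 as well. Median integrated stress scores were 0.709 (log10 units) in cells with neither cycle score above 0, 0.681 in S-higher and 0.612 in G2M-higher cells, a small shift beside the SD over cells of 0.266.

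Other ties joined epithelial, antigen presentation and stress scores. The highest outside the EMT pairs was that of antigen presentation and oxidative stress (0.329), beside -0.192 to 0.230 in the lung libraries. The epithelial score had r = 0.277 to antigen presentation, 0.233 to integrated stress and 0.217 to heat shock scores. Integrated stress rose with hypoxia and glycolysis (0.273) and with p53 targets (0.243). It had no tie to immediate early genes (0.00300, -0.0271 to 0.0589 under the alternatives), whereas all 12 lung libraries had a positive r (0.133 to 0.476). Given depth, the interferon and antigen pair was 0.277 and the antigen and oxidative pair 0.336.

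**Figure D5:**
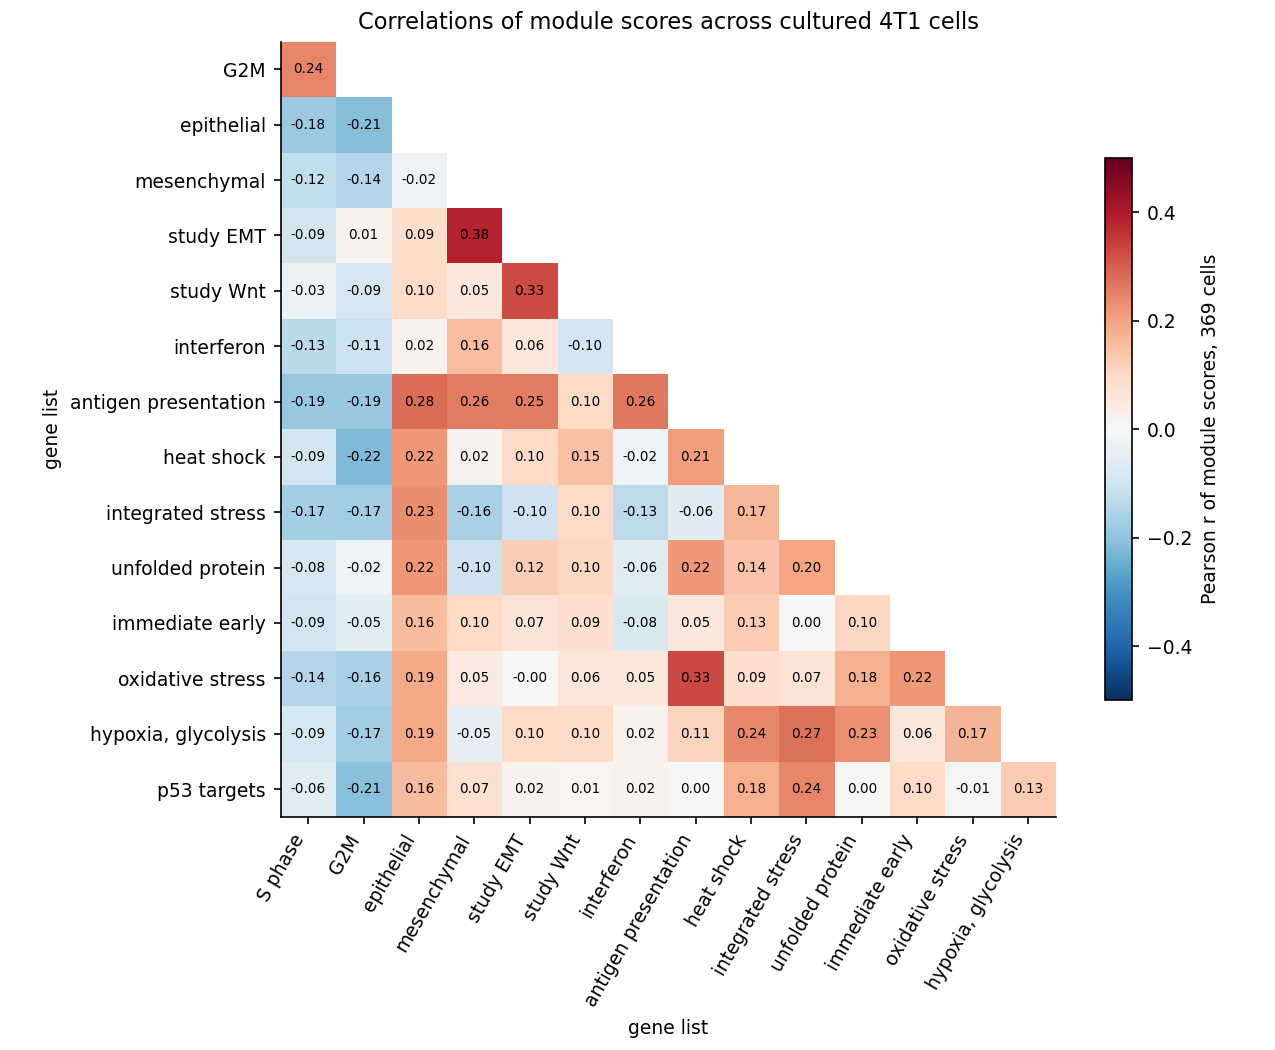
Pearson r between the module scores of the 15 gene lists over the 369 cultured cells (color scale -0.5 to 0.5). The first 2 columns, for S phase and G2M, are almost all below 0, and the darkest cells are EMT with mesenchymal and with Wnt scores and antigen presentation with oxidative stress.

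The widest axes of variation were taken from the 2000 most variable genes. Component 1 (7.04% of their variance) followed the number of detected genes (r = 0.886), with small ribosomal genes such as Rplp2 (-0.783) and S100a6 (-0.749) at the end of few detected genes. Component 2 (5.72%) set Hint1 (0.676) against Actb (-0.486) and H2-D1 (-0.417), where Actb and Ppia, which stood at the Hint1 end (0.650), are 2 of the genes used as normalizer. Component 3 (2.30%) was the cycle (r = 0.775 with the G2M and 0.453 with the S-phase score), with Birc5 (0.613) and Hmgb2, a chromatin protein gene (0.595), at one end and Lgals3, galectin 3 (-0.595), and Rplp0 (-0.554) at the other. Component 4 (1.55%) had r = 0.431 with the EMT and 0.328 with the Wnt score, but its strongest genes were at the other end, the pseudogene Gm9625 (-0.610), and Rplp0 (-0.607), against at most 0.311 (Eif5b, a translation factor gene) at the positive end. Over 8865 genes outside the cycle lists, the 2 cycle scores fitted a median 0.779% of the variance, and reads with detected genes 5.80%. Over 10% was fitted in 206 genes by the cycle scores and in 2105 by depth.

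The 20 genes that varied most for their mean level were mostly not members of the lists above. Of these, 12 are annotated as pseudogenes, 3 are of the mitochondrial genome (mt-Atp6, mt-Co2 and mt-Co3), and the remaining 5 are Hist1h2ap, Hist1h2ae, Birc5, Lgals1 and Gm20390. Lgals1 had lowest, median and highest levels of 1694, 23378 and 52767 CPM, in every cell. mt-Atp6, a subunit of ATP synthase, had 0, 1154 and 7067 CPM, with reads in 315 cells. Among the pseudogenes 5 lie together on chromosome 1 (chr1:24611535-24612410 to chr1:24614885-24615565), in a stretch that copies part of the mitochondrial genome, and of these Gm10925 had 0, 4576 and 17946 CPM and r = -0.0833 to mt-Atp6. For such near-identical sequences the assignment of reads is uncertain.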

How the data were processed

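Cultured 4T1-GFP cells had been sorted singly into lysis plates, reverse transcribed by a modified SMART-Seq2 protocol and sequenced as 50-cycle single reads. Per the methods and the submitters' processing notes, the authors deposited estimated counts (Salmon 0.7.2, GRCm38, with no strand or molecular identifier, annotation release not given in the sources used here) and log10 values. The deposited log10 values were each count over the mean of a cell's detected housekeeping genes, times 10000, plus 1. This was checked: with 8 housekeeping genes found the factor was 9999.8 to 10000.2 in every cultured cell. The authors kept TCs with over 2500 genes and under 5% mitochondrial reads, and their kept cells were used. The mitochondrial share recomputed here gave 1 kept cell above that limit, and 57 when 5 copies of mitochondrial genes annotated on chromosome 1 were added. As 1 cell had been sorted per well, no doublet caller was run.

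Module scores (Seurat 5.3.0 in R 4.3.3, AddModuleScore, seed 1) were computed on the log10 values of all 1566 kept TCs, so that culture and lung share control genes. Pearson correlations over the 369 cells (numpy 2.4.6, pandas 2.3.3, Python 3.11.15) included genes detected in at least 20% of them. CPM came from the estimated counts over all genes, unrounded, and per-kilobase levels from the exon union of gencode M21. For values beside lung libraries, and as an alternative, counts were thinned to 100000 reads per cell and scored as log2(CPM + 1). Partial correlations were given log10 reads and detected genes. The culture was 1 sample, so no p-value was computed. Binomial intervals and limits for counts of 0 are at 95% and 3 counts and cover counting error only. Score and correlation steps were tested on simulated data.

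The G2M, EMT, Wnt, stemness and dormancy, and extravasation lists came from the study and all others were written for this report. Members and lists were chosen with earlier results of these data known. By rule, the genes named came from a fixed set described always, from the 4 members of highest and 2 of lowest member r and the 3 of highest mean CPM in each list, from the 10 best associates of 4 scores, from the 20 most variable genes for their mean and from the 8 genes at each end of components 1 to 4. Alternatives were Spearman correlation, CPM, thinning, depth adjustment, another score, scoring in culture alone and other thresholds. Leaving out the cell of most interferon genes was chosen after seeing the data. Some genes that the rule names are not reported here.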

Additional observations from a re-analysis of the deposited data

Results flagged for a closer look

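Among the lung libraries given beside the culture, the extravascular library of mouse 7 had a median of 9 interferon-list genes per cell at 100000 reads, and the other 3 extravascular libraries had 8 each, so its gap to the others made up the whole range of the group. This was 1 of 12 such checks, and chance marks about 1 in 20 where values are not tied. With the other 3 medians tied, any step at all is marked, so that rate does not hold here. The culture itself, at a median of 8, had no replicate to be checked in this way.

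Wells of the culture that the authors did not keep also held tumor cell RNA. Of these 15 wells, 11 had reads of Krt18, at 47.2 to 2657 CPM, 8 had reads of Krt8, 8 of Epcam and all 15 of Lgals1. They held 556 to 26777 reads and 388 to 2398 detected genes, fewer than every kept cell, and at most 4.72% mitochondrial reads.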

How the results depend on the processing

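Of 161 alternatives tried over 24 results, 158 left the value within the limits set for it. These were a shift of at most 0.1 in r, and the binomial interval for the share of cycling cells. The exceptions were the EMT and Wnt correlation, which was 0.596 with scores as means of z values in place of 0.325, and the share of cycling cells, which was 63.1% when scores were computed on the culture alone and 82.7% at a threshold of -1, another line the study drew, in place of 55.8%. For the z scores the cause was not tested. The median pairwise r of each of the 15 lists kept its sign in all 90 alternatives. The limit of 0.1 says little of those 90, since several main values were themselves below it (0.0308 for p53 targets, 0.0456 for the mesenchymal list). The r of epithelial and mesenchymal scores and of integrated stress and immediate early scores, both near 0, took either sign. No paired analysis was possible because the culture was 1 pool and no result came from a test. Depth limits the genes of low level: at a median of 253686 reads a gene listed at 0 in a cell may have been present below detection, and counts without molecular identifiers are not independent molecules.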
